A study of Mus musculus with 6 samples.

Results

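Collagens are trimers of alpha chains wound into a triple helix, and each chain is encoded by its own Col gene. The 44 mouse collagen chain genes were taken as the protein-coding genes whose symbol starts with Col, a number, a and a number, out of 33676 genes with a counted transcript. The pattern matched 45 symbols, and the remaining one, Col4a3bp, encodes a ceramide transfer protein and was left out. By the assembly they form, 11 chains were grouped as fibrillar, 6 type IV chains as basement membrane and 27 as other collagens. Of these genes, 38 had at least 1 transcript in the count table, 20 had the transcript that GENCODE marks as principal, and 29 had enough counts to be tested among 14118 genes. Col4a2, Col4a5, Col5a1, Col5a3, Col6a2 and Col11a1 had no listed transcript and were not analysed here.

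The 6 libraries were made from C57BL/6 mice, from the modiolus, the central bone of the cochlea in which the spiral ganglion neurons (SGNs) lie. The 3 degenerated libraries came from animals given 1 g/kg kanamycin sulfate under the skin and 0.4 g/kg furosemide into the abdomen 30 min later, a pair of drugs that destroys hair cells, and were collected on day 30. The 3 control libraries came from animals given saline. Per the methods of the study, the model used 8-week-old male mice, and the labels give no transgene or deletion. The labels call the cell type spiral ganglion neuron, but the tissue is the whole modiolus. How many animals went into a library was not given in the sources used here, so p-values measure the spread between these samples, which may be technical. Total counts ranged from 12480876 to 15549319 per library, and replicates correlated at 0.913 to 0.948 on the log2 scale of CPM (counts scaled to a common library size).

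Fibrillar collagens (types I, II, III, V, XI, XXIV and XXVII) are secreted as procollagens, trimmed at both ends and packed into fibrils. Type IV collagen forms the sheet-like network of basement membranes around vessels, Schwann cells and epithelia. The remaining types decorate fibrils, form beaded filaments or hexagonal networks, or span the cell membrane. In the inner ear, bone holds mostly type I collagen and the tectorial membrane types II, IX and XI, while mutations in type IV chains of the COL4A3 group cause hearing loss.

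The collagen difference that turns on a sequence was in which form of Col2a1 was counted, so it is shown first. Col2a1 (ENSMUSG00000022483, chromosome 15, 97975602 to 98004695 on the minus strand, GRCm38) encodes the single chain of type II collagen. Its primary transcript can keep or skip exon 2, which lies within the coding sequence, is 204 bases or 68 codons long and encodes a cysteine-rich domain of the amino-terminal propeptide. The form with exon 2 is known as type IIA and is typical of cartilage precursors and non-cartilage tissue, whereas the form without it, type IIB, is typical of mature chondrocytes. Transcript Col2a1-201 holds the exon, at chr15:98000403-98000606 on the minus strand of GRCm38, and Col2a1-202 joins exon 1 directly to the following exon and starts 38 bases later in the first exon. Below, capitals mark exon 2 and lower case the 20 bases on each side of it in the GENCODE M21 transcripts, 5′ to 3′.
Col2a1-201: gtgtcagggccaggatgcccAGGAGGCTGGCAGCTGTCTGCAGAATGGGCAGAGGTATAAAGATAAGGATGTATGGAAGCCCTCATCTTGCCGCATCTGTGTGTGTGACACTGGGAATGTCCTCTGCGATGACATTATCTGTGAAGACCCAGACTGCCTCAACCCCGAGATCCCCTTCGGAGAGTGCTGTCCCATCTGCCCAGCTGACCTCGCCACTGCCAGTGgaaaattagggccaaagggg
Col2a1-202: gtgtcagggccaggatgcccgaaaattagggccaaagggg

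Col2a1 as a gene did not pass the test. Its level was 385, 474 and 249.7 CPM in the control libraries and 304, 304 and 397 CPM in the degenerated libraries. The groups overlapped, and the log2 fold change of degenerated over control libraries was -0.14 with a standard error of 0.25 (edgeR quasi-likelihood test, unadjusted p = 0.603). The difference took the opposite sign, 0.08, when control replicate 2, the library with the most Col2a1, was left out.

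The 2 long forms differed in opposite directions beneath that total. Col2a1-201, with exon 2, had 1075, 356 and 995 counts in the control libraries and 2169, 2813 and 2037 counts in the degenerated libraries. Col2a1-202, without exon 2, had 4738, 6332 and 2915 counts against 2274, 1500 and 2990 counts. Every degenerated library held more of the form with exon 2 than every control library, whereas the form without it overlapped between the groups. As a share of both forms, Col2a1-201 made up 18.5%, 5.32% and 25.4% of counts in the control libraries and 48.8%, 65.2% and 40.5% in the degenerated libraries. The mean share was 16.4% ± 10.2 against 51.5% ± 12.6 (SD, n = 3 each), a difference of 35.1 percentage points. The 2-sided exact permutation p was 0.1, the smallest that 3 against 3 libraries allow. Any measure without overlap gives that p, and this share was picked after its values were seen, so the p adds no support.

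In a fit over 26065 transcripts, of which 1.79% were called, Col2a1-201 rose with a log2 fold change of 1.62 ± 0.41 (SE, edgeR unadjusted p = 0.00829, adjusted p = 0.542). A call here and throughout needed both an unadjusted p under 0.01 and a log2 fold change above 0.2 in size. The call was lost when any 1 library other than control replicate 2 was left out, with log2 fold changes of 1.5 to 1.89. Col2a1-202 had a log2 fold change of -0.97 ± 0.43 (SE, edgeR unadjusted p = 0.0662). These transcripts were chosen after their values were seen. Reads that both forms share were divided between them upstream by the authors' software, and reads over exon 2 itself were not analysed here.

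**Figure D1:**
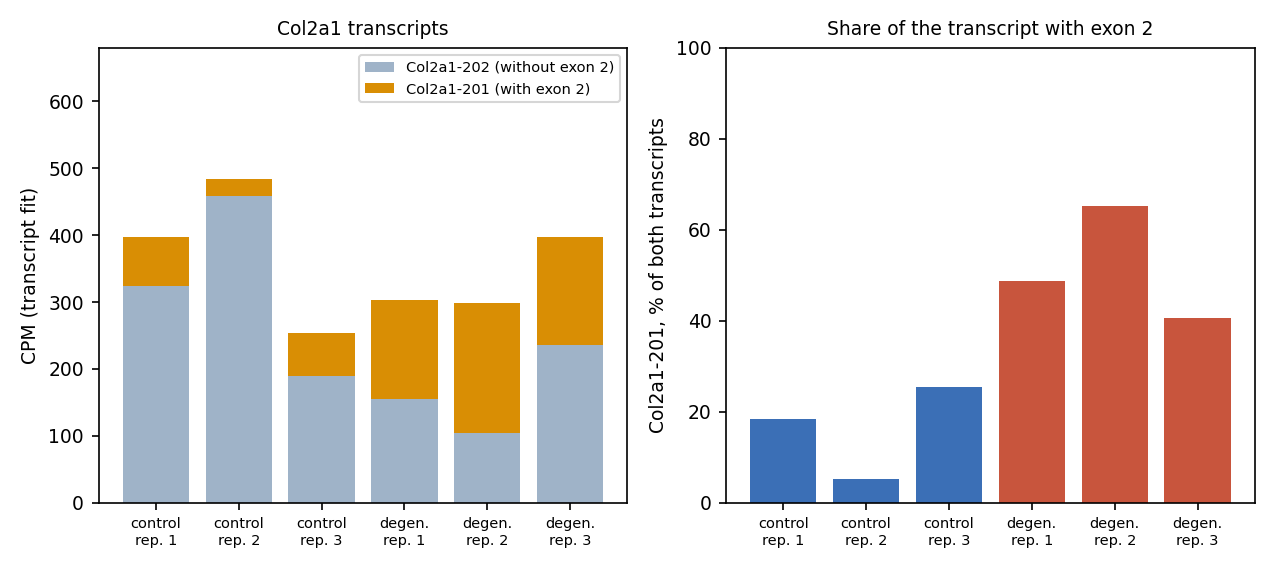
Left, stacked bars of the 2 long Col2a1 transcripts in CPM of the transcript fit in each of the 6 libraries; right, Col2a1-201 as a percentage of the counts of both. The share lies between 5.32% and 25.4% in the control libraries and between 40.5% and 65.2% in the degenerated libraries, while the summed bars overlap between the groups.

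The same question was asked of each collagen with 2 coding transcripts of at least 50 counts on average, which gave 4 genes. The groups did not overlap in the share of the more abundant transcript for Col2a1 and Col12a1, and overlapped for Col14a1 and Col1a2. Among all 2033 genes with such a pair, 14.2% did not overlap. Col12a1 encodes type XII collagen, which decorates fibril surfaces. Its short transcript Col12a1-204 made up 73.3%, 74.4% and 94.6% of the pair in the control libraries and 30.5%, 32.8% and 70.1% in the degenerated libraries. The long form Col12a1-202 had 46, 23 and 7 counts in the control libraries and 182, 129 and 29 counts in the degenerated libraries. That difference was not called, at a log2 fold change of 2.16 ± 0.92 (SE, edgeR unadjusted p = 0.0589). Col12a1-202 was under 50 counts in every control library and met the minimum average only through the degenerated libraries. Such a filter favours a difference in share, so the Col12a1 share is a description only.

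Over the collagen transcripts that are listed, the total was close to level. Chains without a listed transcript are missing from it, and Col1a1 and Col3a1 nearly so. The totals, shares and ranks here therefore describe the listed part only. Collagen chains took 0.291% to 0.365% of CPM in the control libraries and 0.273% to 0.331% in the degenerated libraries. Col1a2 had the highest level per length, 273 CPM per kilobase of listed transcript on average in the control libraries and 197 in the degenerated libraries. Col2a1 followed at 74.9 and 68.0 CPM per kilobase, then Col11a2 at 64.3 and 48.7 and Col8a1 at 49.8 and 60.3. At the low end of the chains tested, Col6a3, whose principal transcript is not listed, was at 0.115 and 0.128 CPM per kilobase. Col17a1 had no count in any library for its 1 listed transcript. The share of the largest member differed: Col1a2 was 44.1%, 41.5% and 43.0% of collagen CPM in the control libraries and 34.0%, 31.6% and 39.1% in the degenerated libraries, without overlap.

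**Figure D2:**
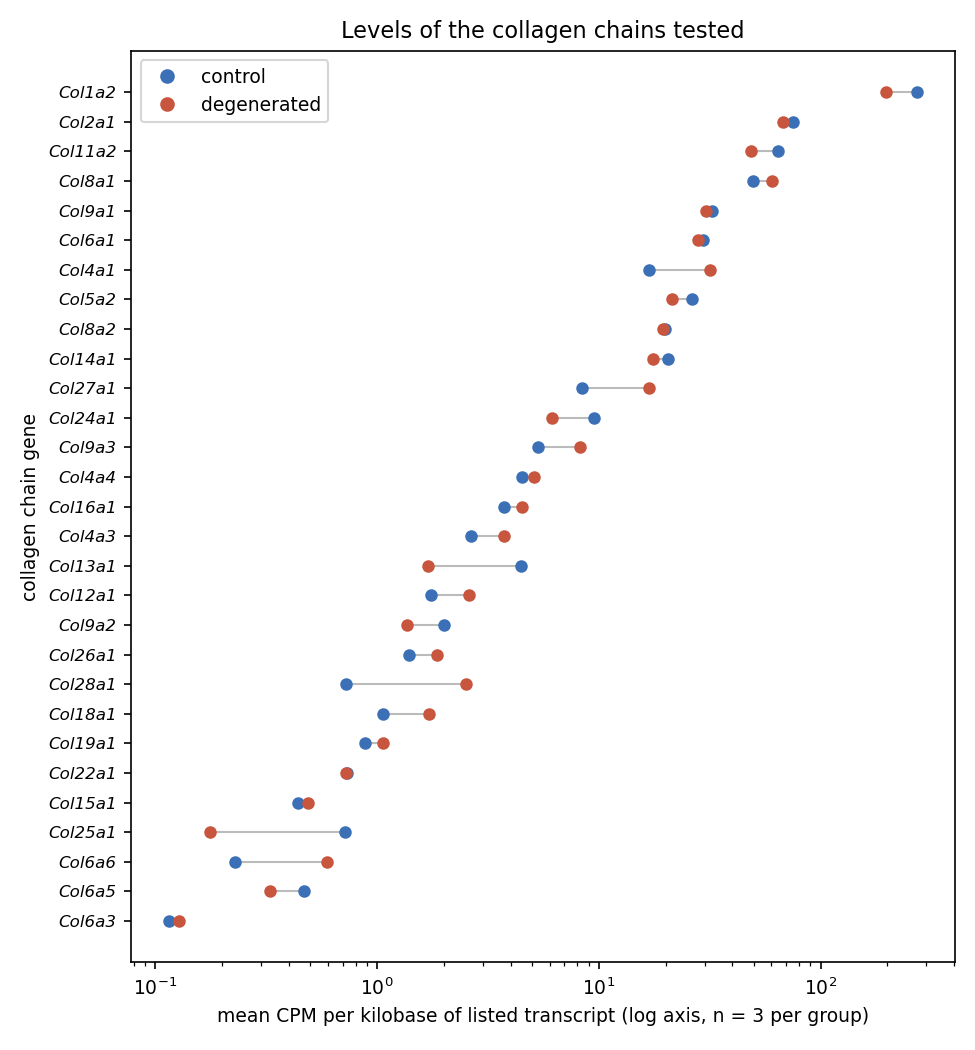
Mean CPM per kilobase of listed transcript, on a log axis, of the 29 collagen chain genes tested, in 3 control (blue) and 3 degenerated (red) libraries. Col1a2 leads with 273 and 197 CPM per kilobase, and Col6a3 is lowest with 0.115 and 0.128.

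Of the 29 chains tested, 15 had a positive and 14 a negative log2 fold change, and their median was 0.14, beside -0.003 over all 14118 genes. The call was met by 2 collagens that rose, Col27a1 and Col28a1, and by none that fell. Among all genes, 2.73% were called, 2.01% higher and 0.715% lower. At an unadjusted p under 0.05, which 9.68% of all genes passed (6.08% upward and 3.6% downward), the same 2 chains passed upward and Col1a2, Col24a1, Col13a1 and Col25a1 downward. The groups did not overlap for 4 chains that were higher (Col27a1, Col28a1, Col4a1 and Col4a3) and 2 that were lower (Col24a1 and Col25a1), beside 10.3% and 7.37% of all genes (17.7% in all). Over the 14118 genes, no collagen and no other gene had an adjusted p under 0.05 with edgeR, and none did with limma-voom. DESeq2 gave 382 such genes, Col27a1 and Col28a1 among them.

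**Figure D3:**
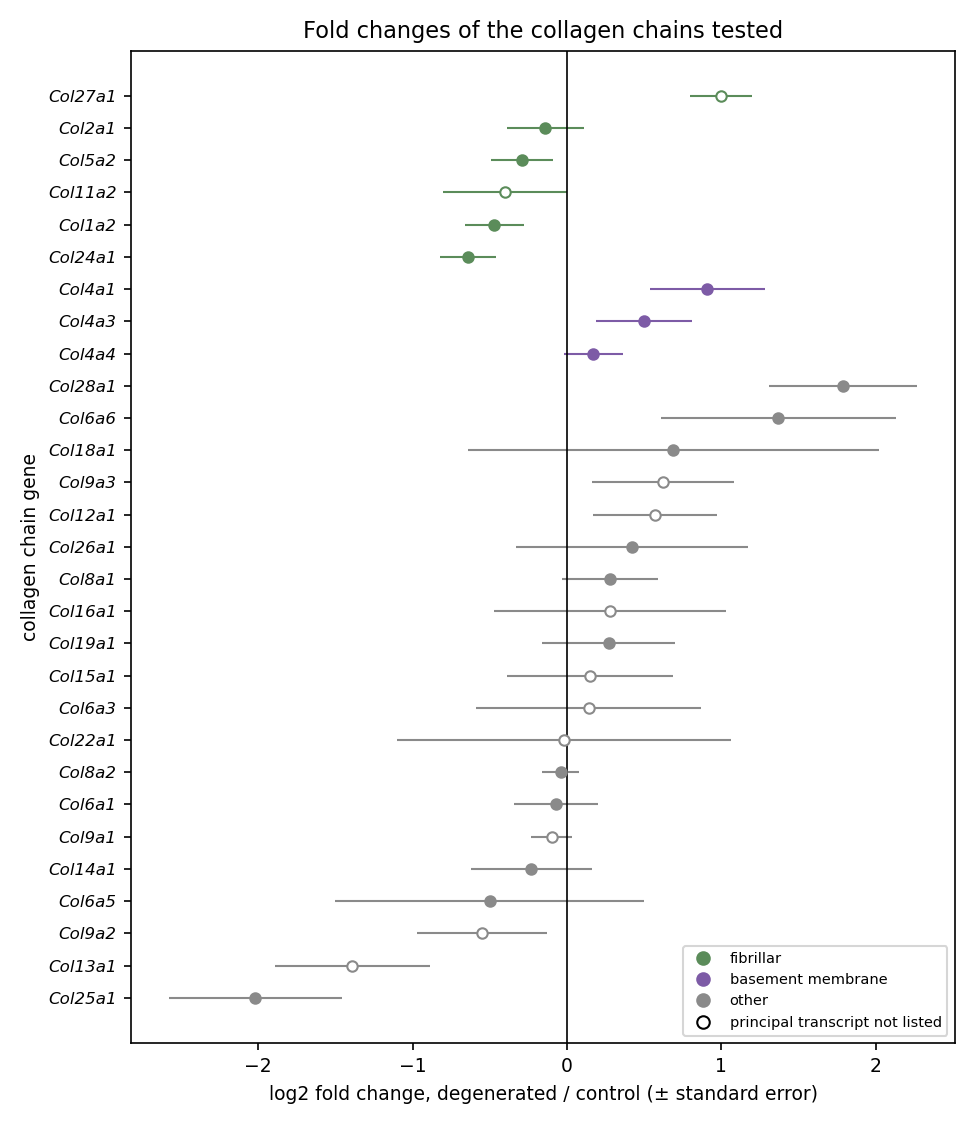
Log2 fold change of degenerated over control libraries, with its standard error as a bar, for the 29 collagen chains tested, ordered within fibrillar (green), basement membrane (purple) and other (grey) collagens. Open circles are chains whose principal transcript is not listed, the 5 fibrillar chains other than Col27a1 lie below 0, and the 3 type IV chains lie above 0.

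The fibrillar chains tested had negative log2 fold changes with 1 exception, but none was called lower. Among those with a negative value, only Col24a1 did not overlap between the groups. Of the 6 tested, 5 had a negative log2 fold change, the median was -0.34, and 1 was called, upward. Summed CPM of the 8 listed fibrillar genes were 2438, 2821 and 2182 in the control libraries and 1777, 1665 and 2313 in the degenerated libraries, so that degenerated replicate 3 lay within the control range.

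Col1a2 (ENSMUSG00000029661, chromosome 6, 4504814 to 4541544, plus strand), the second chain of type I collagen in bone and fibrous tissue, had 1608, 1505 and 1253 CPM in the control libraries. It had 991, 864 and 1292 CPM in the degenerated libraries. Only degenerated replicate 3 exceeded a control library. The log2 fold change was -0.47 ± 0.19 (SE, edgeR unadjusted p = 0.0431, adjusted p = 0.496), which was not called. Its partner Col1a1 and the type III chain Col3a1 could not be assessed: the table lists for Col1a1 1 retained-intron transcript with 1 to 6 counts per library and for Col3a1 short transcripts with 1 count per library. Those counts say nothing about the full-length messages.

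Col24a1 (ENSMUSG00000028197, chromosome 3, 145292472 to 145552011, plus strand) encodes a minor fibrillar chain known from developing bone. Its level was 58.2, 77.0 and 68.4 CPM in the control libraries and 37.9, 43.7 and 49.3 CPM in the degenerated libraries. All degenerated libraries were below all control libraries. The log2 fold change of -0.64 ± 0.18 (SE) just missed the call (edgeR unadjusted p = 0.0109, adjusted p = 0.378) and met it without control replicate 1, at -0.75. Both of the remaining fibrillar chains, named after their values were seen, differed less. Col5a2, a chain of the type V collagen that starts fibrils, had a log2 fold change of -0.29 (edgeR unadjusted p = 0.201), and Col11a2, a type XI chain of the tectorial membrane, had -0.40 (edgeR unadjusted p = 0.356).

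The exception was Col27a1 (ENSMUSG00000045672, chromosome 4, 63214004 to 63334991, plus strand), a fibrillar chain of cartilage. It had 23.6, 30.1 and 28.8 CPM in the control libraries and 57.9, 62.8 and 44.4 CPM in the degenerated libraries. The lowest degenerated library was above the highest control library. Col27a1 rose with a log2 fold change of 1.00 ± 0.20 (SE, edgeR unadjusted p = 0.00235, adjusted p = 0.277). The call was lost without degenerated replicate 1 (0.95) or degenerated replicate 2 (0.88). Its principal transcript is not listed, and the counted part was mostly Col27a1-206, a transcript annotated as a target of nonsense-mediated decay, with 253, 346 and 353 counts in the control libraries and 777, 754 and 448 in the degenerated libraries. The full-length message was not analysed here.

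Bone transcripts had lower values too. Of 10 osteoblast markers, 7 were listed and tested, all 7 had a negative log2 fold change, 2 were called lower (0.715% of all genes were), and the median was -1.16. The 2 called are the near-identical copies Bglap and Bglap2, between which reads can be split, and Ibsp, Dmp1 and Mepe were not analysed here. Their summed level was 699, 1126 and 776 CPM in the control libraries and 423, 335 and 568 CPM in the degenerated libraries. Within each group, the osteoblast sum was highest in control replicate 2 and degenerated replicate 3. Col24a1, Col11a2, Col2a1 and Col5a2 were highest in the same libraries. Col1a2 was highest in control replicate 1 and degenerated replicate 3, and Col27a1 in control replicate 2 and degenerated replicate 2. The part of bone in these differences was not tested. In bulk tissue, fewer cells of a type and less RNA per cell cannot be told apart. Chondrocyte markers, 5 of 10 listed, had -0.09 as their median and summed levels of 275 to 370.2 CPM in the control and 274 to 341 CPM in the degenerated libraries.

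**Figure D4:**
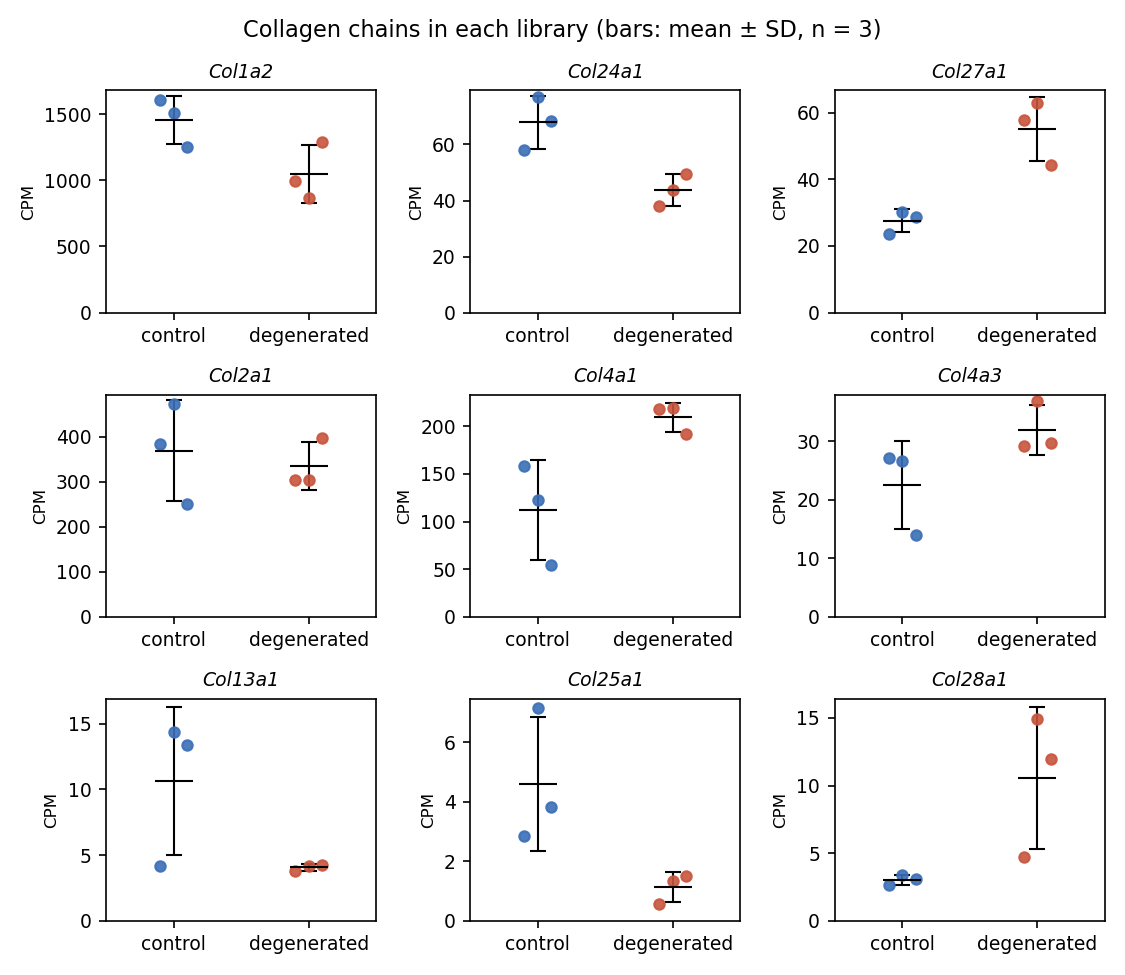
CPM of 9 collagen chains in each library (points), with the mean and SD of 3 libraries per group (bars) and each axis starting at 0. Col24a1 and Col25a1 are lower, and Col27a1, Col28a1, Col4a1 and Col4a3 higher, in every degenerated library than in every control library, whereas the groups overlap for Col1a2, Col2a1 and Col13a1.

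Basement membrane chains had higher values, but no chain was called. All 3 type IV chains tested had a positive log2 fold change, with a median of 0.50. Col4a1 (ENSMUSG00000031502, chromosome 8, 11198423 to 11312826, minus strand), a chain of the type IV network found in almost all basement membranes, had 158, 123 and 54.4 CPM in the control libraries. It had 218, 219 and 192 CPM in the degenerated libraries. The degenerated libraries lay close together above all control libraries, of which control replicate 3 was the lowest. The log2 fold change was 0.91 ± 0.37 (SE, edgeR unadjusted p = 0.0512, adjusted p = 0.517). Without control replicate 3 it was smaller but less variable, at 0.57 ± 0.15 (SE, edgeR unadjusted p = 0.0116, adjusted p = 0.575), and still not called. Col4a2, its partner in the trimer, was not analysed here.

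Col4a3 and Col4a4 encode chains of the specialised type IV network that is found in the cochlea and the kidney glomerulus. Col4a3 had 27.1, 26.6 and 13.9 CPM in the control libraries and 29.1, 36.8 and 29.7 CPM in the degenerated libraries, without overlap, at a log2 fold change of 0.50 ± 0.31 (SE, edgeR unadjusted p = 0.153). Col4a3 was named after its values were seen. Col4a4 had 50, 49.6 and 37.5 CPM against 49.6, 58.5 and 45.9 CPM, and the groups overlapped (log2 fold change 0.17 ± 0.19, SE, edgeR unadjusted p = 0.402). The ratio of Col4a3 to Col4a4 per kilobase was 0.641, 0.634 and 0.438 in the control libraries and 0.694, 0.743 and 0.763 in the degenerated libraries. Both chains shared their lowest value in control replicate 3. The fourth listed chain, Col4a6, had at most 0.474 CPM in any library and was not tested.

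Control replicate 3 stood apart in another respect, since it had far more fast skeletal muscle transcripts than the other libraries. Myh4, a muscle myosin named after its values were seen, had 0, 0 and 103 CPM in the control and 0.410, 0 and 0.474 CPM in the degenerated libraries. Without this library the median of the type IV chains was 0.24. Endothelial and pericyte markers, of which 7 of 10 were listed, summed to 143, 129 and 114 CPM in the control and 189.9, 136 and 132 CPM in the degenerated libraries, and 3 of them tested had log2 fold changes of 0.05 to 0.13 with none called. Their part in the type IV levels was not tested.

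The other collagens had values in both directions. Of 27 genes, 26 were listed and 20 tested, 11 with a positive and 9 with a negative log2 fold change and a median of 0.15, and 1 was called. Their summed level was 978, 608 and 624 CPM in the control libraries and 843, 752 and 725 CPM in the degenerated libraries.

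Col28a1 (ENSMUSG00000068794, chromosome 6, 7997808 to 8192617, minus strand) encodes a beaded-filament-like collagen that is known from peripheral nerve, where it surrounds non-myelinating Schwann cells and nodes. It had 2.65, 3.40 and 3.06 CPM in the control libraries and 4.72, 14.9 and 12.0 CPM in the degenerated libraries. Degenerated replicates 2 and 3 were far above the control libraries and degenerated replicate 1 was only just above them. Nearly all counts were of the principal transcript Col28a1-201, with 40, 47 and 48 counts in the control and 66, 210 and 150 counts in the degenerated libraries. Col28a1 rose with a log2 fold change of 1.79 ± 0.48 (SE, edgeR unadjusted p = 0.00923, adjusted p = 0.362). This call was lost when any 1 library except degenerated replicate 1 was left out, with values of 1.45 to 1.88. Schwann cell markers, 8 of 10 listed, summed to 5531 to 9689 CPM in the control and 4848 to 7662 CPM in the degenerated libraries, with 4 of 8 lower and none called. Col26a1, the second unclassified chain, had 2.38, 4.17 and 1.28 CPM against 4.51, 5.07 and 0.868 CPM and was not called (log2 fold change 0.42 ± 0.75, SE).

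Of the 4 transmembrane collagens, 2 were tested; both had a negative log2 fold change and neither was called. Col25a1 (ENSMUSG00000058897, chromosome 3, 130131501 to 130599877, plus strand) is a neuronal collagen that motor axons need to innervate muscle. Its level was 2.85, 7.15 and 3.83 CPM in the control libraries and 0.547, 1.34 and 1.5 CPM in the degenerated libraries. The groups did not overlap. The log2 fold change of -2.02 ± 0.56 (SE) just missed the call (edgeR unadjusted p = 0.0107, adjusted p = 0.376). Nearly all of its counts, 42, 100 and 48 against 7, 18 and 18, were of the coding transcript Col25a1-202. Of 10 neuron markers, 9 were listed, 7 of 9 had a negative log2 fold change, none was called, and the sums were 12314, 9054 and 9291 CPM against 6662, 8269 and 5633 CPM. Library by library the orders differed: Col25a1 was highest in control replicate 2, where the control neuron sum was lowest. The part of neuron number in the value of Col25a1 was not tested.

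Col13a1, a transmembrane collagen of the neuromuscular junction and of bone, had 4.17, 14.4 and 13.4 CPM in the control libraries and 3.76, 4.16 and 4.26 CPM in the degenerated libraries. Control replicate 1 sat with the degenerated libraries and the other control libraries well above them. The log2 fold change was -1.39 ± 0.50 (SE, edgeR unadjusted p = 0.0323), and it was called without control replicate 1, at -1.78. Its 2 listed transcripts are both retained-intron forms. The other transmembrane chains, Col17a1 and Col23a1, were at most 0.861 CPM in any library and were not tested.

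Short-chain network collagens form hexagonal lattices, and type VIII chains are typical of vessel walls and of the membrane under corneal endothelium. Col8a1 had 387, 180.2 and 195 CPM in the control libraries and 329, 302 and 294 CPM in the degenerated libraries. Control replicate 1 was the highest library of all, and the groups overlapped. Its log2 fold change was 0.28 ± 0.31 (SE, edgeR unadjusted p = 0.402) and it was called without control replicate 1, at 0.71. Col8a2 stayed between 78.3 and 91.9 CPM in all 6 libraries, at a log2 fold change of -0.04 ± 0.12 (SE). The ratio of Col8a1 to Col8a2 per kilobase was 3.57, 1.73 and 2.1 in the control libraries and 3.27, 3.06 and 3.02 in the degenerated libraries.

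Fibril-associated chains sit on the surface of fibrils and carry no fibril of their own. Of the 8 tested, 4 were higher and 4 lower, their median was 0.12, and none was called. Col9a1, a type IX chain that coats type II fibrils in the tectorial membrane, had 92.5, 104 and 101 CPM against 105, 83.7 and 89.5 CPM (log2 fold change -0.10 ± 0.13, SE). Col14a1, a chain of mature fibrous tissue, had 172, 71.7 and 71.8 CPM against 103, 92.7 and 72.8 CPM (log2 fold change -0.23 ± 0.39, SE). Control replicate 1 set its sign, which was positive, 0.31, without that library. Col20a1, which was too low to be tested and is named after its values were seen, had 35 counts in the control libraries together, nearly all in control replicates 2 and 3, and none in the degenerated libraries. With a floor of 3 counts over the group, its pooled level was at least 10.8-fold lower. That bound covers counting error only, not the spread between libraries, and control replicate 1 had 1 count.

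Type VI collagen forms beaded filaments around cells. Col6a1 had 163, 105 and 93.9 CPM in the control libraries and 145, 95.4 and 105 CPM in the degenerated libraries, with overlapping groups and a log2 fold change of -0.07 ± 0.27 (SE). The sign turned positive without control replicate 1 (0.20) or degenerated replicate 2 (0.04). Col6a6 had 0.794, 0.920 and 4.21 CPM against 7.05, 5.28 and 3 CPM, at a log2 fold change of 1.37 ± 0.76 (SE, edgeR unadjusted p = 0.121). Here too control replicate 3 decided the outcome, since the log2 fold change was 2.55 and called without it.

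Multiplexins carry interrupted helices and lie at basement membranes. Col15a1 had 0.993, 1.98 and 0.574 CPM against 1.09, 1.27 and 1.58 CPM (log2 fold change 0.15 ± 0.54, SE), and its sign turned to -0.19 without control replicate 3. Col18a1, the precursor of endostatin, had 8.14, 0 and 6.51 CPM against 10.1, 6.41 and 7.18 CPM (log2 fold change 0.69 ± 1.33, SE). Control replicate 2 was the library at 0, and the log2 fold change was 0.11 without it and 2.55 with limma-voom.

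Collagen chains are hydroxylated and folded in the endoplasmic reticulum, trimmed outside the cell and crosslinked. Of 34 genes for these steps, 32 were listed and 27 tested, 16 with a positive and 11 with a negative log2 fold change; 3 were called higher, P4ha1, Lox and Loxl4, and none lower, beside 2.01% and 0.715% of all genes. Both called crosslinking enzymes oxidise lysines of collagen. Lox had 206, 182 and 179 CPM in the control libraries and 387, 457 and 434 CPM in the degenerated libraries, a log2 fold change of 1.17 ± 0.11 (SE, edgeR unadjusted p = 4.1e-05, adjusted p = 0.0719). Its edgeR adjusted p was 0.0362 with only genes whose every annotated transcript is listed, and over all alternatives the adjusted p ranged from 6.9e-12 (DESeq2) to 0.602 (edgeR). Loxl4 had 5.56, 4.53 and 5.55 CPM against 13.9, 16.0 and 25.3 CPM, a log2 fold change of 1.82 ± 0.32 (SE, edgeR adjusted p = 0.240). Neither overlapped between the groups. Loxl3 did not pass, and Loxl1 was not analysed here.

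P4ha1, a prolyl 4-hydroxylase subunit, had 0 counts in the control libraries and 5.13, 34.1 and 10 CPM in the degenerated libraries, 686 counts in all, for the 1 of its 3 transcripts that is listed. With a floor of 3 counts over the group, the pooled level of that transcript was at least 248-fold higher. That bound covers counting error only, not the spread between libraries. The other transcripts of P4ha1 are not listed, so the bound does not describe the gene as a whole. The remaining enzymes of hydroxylation and glycosylation were not called. Among chaperones and secretion factors, Serpinh1, the collagen chaperone HSP47, had the smallest p. It was at 324, 77.3 and 319 CPM in the control libraries and 420.1, 364 and 488 CPM in the degenerated libraries (log2 fold change 0.82 ± 0.52, SE, edgeR unadjusted p = 0.167). Control replicate 2 was far below every other library. Of the procollagen processing genes, Pcolce, an enhancer of propeptide cleavage, had 1.79, 2.62 and 2.42 CPM against 3.63, 4.16 and 3.08 CPM (log2 fold change 0.67 ± 0.32, SE, edgeR unadjusted p = 0.0815).

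Of 10 collagen receptor genes, 9 were tested, and 2 were called higher and none lower, beside 2.01% and 0.715% of all genes. The count fell to 0 with only genes whose every annotated transcript is listed, because that setting leaves out Ddr1 and Itgb1, the called genes. It was also 0 with principal transcripts alone, where Itgb1 was not tested. Ddr1, a receptor tyrosine kinase activated by fibrillar and type IV collagens, had 165, 141 and 138 CPM in the control libraries and 236, 283 and 253 CPM in the degenerated libraries. Its log2 fold change was 0.80 ± 0.12 (SE, edgeR unadjusted p = 0.000581, adjusted p = 0.204), and it was 0.23 and not called when only principal transcripts were counted, an alternative added after seeing the data. Itgb1, the integrin subunit that pairs with the collagen-binding alpha chains, had 4.63, 4.17 and 4.21 CPM against 51.1, 84.8 and 35.8 CPM (log2 fold change 3.72 ± 0.37, SE, edgeR adjusted p = 0.0779). Only short or decay-annotated transcripts of Itgb1 are listed, so this value does not describe its main message.

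For collagen breakdown, 3 of 8 genes were listed and 2 tested. Mmp9, a gelatinase made by osteoclasts and neutrophils among others, had 158, 414 and 178 CPM in the control libraries and 50.3, 48.7 and 142 CPM in the degenerated libraries. The groups did not overlap, and the log2 fold change of -1.64 ± 0.59 (SE) was not called (edgeR unadjusted p = 0.0316). The number of degradation genes called lower, 0, became 1 with DESeq2 and 1 without degenerated replicate 3. Of 4 fibril-associated proteoglycans tested out of 8, none was called. The smallest p was that of Aspn, which binds type I collagen, at 36.9, 19.1 and 32.7 CPM against 16.6, 24.9 and 12.2 CPM (log2 fold change -0.73 ± 0.37, SE, edgeR unadjusted p = 0.0982).

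The remaining marker lists are given beside the all-gene shares of 2.01% called higher and 0.715% called lower. Of 9 hair cell markers tested, 8 were lower and 2 called lower, with sums of 522 to 794 CPM in the control and 171 to 521 CPM in the degenerated libraries. Fibroblast markers, 7 tested, had -0.18 as their median log2 fold change and none called, and summed to 484 to 632 CPM in the control and 462 to 638 CPM in the degenerated libraries. Macrophage markers, 6 tested, had 2 called higher, C1qb and C1qc, with sums of 507 to 569.8 CPM against 559.5 to 785 CPM. The list was not uniform: 4 had a positive log2 fold change and 2 a negative one, Cd68 (-1.54) and Itgam (-0.67). Cochlear fibrocyte and epithelium markers, 6 tested, had 1 called lower and a median of 0.28. In the skeletal muscle list, 3 were tested and the 1 called lower was Pvalb, which neurons also express and which was high in every library, at 722 to 817 CPM in the control and 323 to 512 CPM in the degenerated libraries. Their part in the collagen values was not tested.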

How the data were processed

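Total RNA of 6 modiolus libraries was sequenced on Illumina instruments. Per the methods of the study, reads were aligned with Hisat2 2.1.0 and expression was evaluated with StringTie 1.3.3b. The labels also list Bowtie 0.12.2 and the builds mm8 and mm10 without a role, and for the counting step and annotation release nothing is given in the sources used here. The authors deposited raw counts per Ensembl transcript, 65535 transcripts in all, without normalization.

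Counts were added over each gene's listed transcripts with GENCODE M21 (GRCm38), where 263 transcripts with 0.125% of counts did not match. Only 17789 of 33676 genes had every annotated transcript listed, so a change in transcript use can change a gene's counted part, and short or non-coding transcripts stand in for some genes. The 3 degenerated libraries were compared with the 3 control libraries by the robust quasi-likelihood F test of edgeR 4.0.16 (R 4.3.3), after filterByExpr and TMM scaling (factors 0.983 to 1.02). Calls needed an unadjusted p under 0.01 and an absolute log2 fold change above 0.2, and Benjamini-Hochberg adjusted p-values cover all 14118 genes tested. CPM carry the TMM factors, and standard errors are the size of the log2 fold change divided by the square root of F. The common biological coefficient of variation was 0.488. Scripts were tested on simulated data.

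Collagens were named in the text when called, when their unadjusted p was under 0.05, or when among the 2 highest of their class per kilobase, with Col1a1, Col1a2, Col2a1, Col3a1, Col4a1 and Col4a2 always. Of the other lists, called genes or else the gene with the smallest p were named. Members and lists were chosen with earlier results of these data known. DESeq2 1.42.0, limma-voom (limma 3.58.1), other filters and scalings, a replicate block, leaving out each library, genes with every transcript listed and principal transcripts alone were alternatives. No library was a duplicate: the fewest genes that differed in count between 2 replicates were 19190. Intervals beyond the libraries' spread were not used, and floors cover counting error only.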

Additional observations from a re-analysis of the deposited data

How the results depend on the processing

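The 3 libraries per group and the listed transcripts limit these results. The number of chains called higher was 2 with all libraries, 1 with limma-voom and 1 with the replicate block. It was 0 with only genes whose every annotated transcript is listed, a setting that leaves Col27a1 and Col28a1 untested. It was 1 with principal transcripts alone (added after seeing the data). When leaving out 1 library it was 0 to 2, and 0 without degenerated replicate 2. The chains called were not always the same. Without control replicate 1 they were Col27a1 and Col8a1, and without control replicate 3 Col27a1 and Col6a6. With principal transcripts alone, the chain called was neither Col27a1, whose principal transcript is not listed, nor Col28a1. The number called lower, 0, became 2 with DESeq2, 2 without a filter on low counts and 1 with the replicate block, and was 0 to 3 when leaving out 1 library, 3 without control replicate 1. Maturation genes called higher fell from 3 to 1 with only completely listed genes, because P4ha1 and Loxl4 are then left out. That alternative also left no fibrillar or type IV chain to test. The fibrillar median was -0.51 to -0.13, the type IV median 0.24 to 0.64 and the median of the other collagens 0 to 0.29 when leaving out 1 library, and the last was -0.06 with only completely listed genes. When leaving out 1 library, Col2a1 ranged from -0.37 to 0.08, Col14a1 from -0.45 to 0.31, Col6a1 from -0.28 to 0.20 and Col15a1 from -0.19 to 0.74. Signs reversed for Col14a1 (0.31) and Col6a1 (0.20) without control replicate 1, Col2a1 (0.08) without control replicate 2, Col15a1 (-0.19) without control replicate 3 and Col6a1 (0.04) without degenerated replicate 2. Counting principal transcripts alone turned Col2a1 from -0.14 to 1.69, because only Col2a1-201 is then counted. Col24a1 and Col25a1 were called with DESeq2 (-0.65 and -2.05) and without the filter (-0.65 and -2.04). Lox kept its call and direction under all 14 alternatives, at 1.11 to 1.23.

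Whether same-numbered libraries were paired was not established. Their deviations correlated at 0.16, -0.09 and 0.07. Control replicates 1 and 3 and degenerated replicate 1 correlated best with their own number, and the other libraries did not. With 3 libraries per group, such correlations can neither show nor exclude pairing. With the replicate block, Col25a1 was called lower (-2.03), Col28a1 lost its call (1.65) and Col2a1-201 lost its call (1.73), while Col12a1-202 was called (2.23).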

Other observations

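Col4a3bp, the ceramide transfer protein gene whose symbol resembles that of a collagen, had 4.04, 7.71 and 7.34 CPM in the control libraries and 18.9, 16.2 and 5.84 CPM in the degenerated libraries. The log2 fold change of 1.10 ± 0.52 (SE, edgeR unadjusted p = 0.0764) was not called, and the groups overlapped through degenerated replicate 3. Only non-coding transcripts of this gene are listed.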
